A study of Ovis aries with 30 samples.

Results

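The mitosis genes are 50 genes whose products start, check, carry out or complete cell division. Of these, 49 have a row in the count table of 28524 genes, and NCAPH, a condensin subunit, was not analysed here. The members were chosen by gene symbol, and all 30 libraries were read.

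RNA was sequenced from brown adipose tissue (BAT) around the kidneys and from thyroid tissue of 15 newborn Romney lambs, obtained 12–24 h after birth as 1 twin per dam. In the cold group, 6 lambs spent 2 days at 4 °C. In the ambient temperature (AT) group, 6 lambs spent 2 days at 20–22 °C. The 3 control lambs were sampled at the start, so treated lambs were 2 days older than controls, and housing and age cannot be told apart in any comparison with controls. Only the comparison of cold with AT is free of this difference in age. Lambs are numbered within their group, and both tissues of a lamb carry the same number. The study kept Control 1 and Control 3 and left out Control 2, and the tests below did the same unless all 3 controls are named.

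A cell enters mitosis when cyclin B activates the kinase CDK1, which leads to condensed chromosomes and a spindle. Kinetochores then attach the chromosomes to microtubules while the spindle checkpoint waits, the anaphase-promoting complex frees the sister chromatids, and cytokinesis parts the cells. Transcripts of most of these genes are high in dividing cells and low in resting cells, and in rodent BAT precursor and endothelial cells are known to divide during cold exposure. In RNA of whole tissue, fewer dividing cells and less RNA per cell cannot be told apart.

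MKI67 encodes Ki-67, a protein of the chromosome surface that is widely used as a marker of proliferation. It lies on the minus strand of NC_040273.1 between positions 51157024 and 51186314 of Oar_rambouillet_v1.0, with 11062 bases of exons. Its quantitative PCR primers are shown because this is the member that the study itself chose to measure a second time. Each is 20 bases long and the product has 150 bases.
MKI67 forward: tggctttgttctctgcgtct
MKI67 reverse: cctcggagctgaagtgtgaa

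BAT libraries held from 31556500 to 37025998 counts, and thyroid libraries from 25062784 to 30124871. In BAT, 2 genes named by a LOC number took between 43.8% and 76.5% of the counts, and all other genes shared between 8093700 and 18276329. The counts of the 49 members summed to 1034 at the least and 22548 at the most in BAT, and to 8062 and 21564 in the thyroid libraries. Levels are given as normalized counts, which are counts divided by a size factor set within each tissue from ACTB, RPL19 and HUWE1. Thyrocyte markers summed to at least 1328917 normalized counts in every thyroid library and to at most 1579 in every BAT library. Brown adipocyte markers summed to at least 28460 in every BAT library and to at most 12106 in every thyroid library. BAT of Control 2 stood apart, with a brown adipocyte sum of 360914 against at most 117222 in the other lambs and an endothelial sum of 10714 against at least 33706. In thyroid tissue, AT 3 and Control 1 carried skeletal muscle markers, at sums of 3616154 and 336066 against at most 4281 in the others. Thyroid Control 2 carried parathyroid markers, at a sum of 51396 against at most 2729 in the others. The 2 LOC genes took 27.8% of its counts, against at most 14.9% in the other thyroid libraries. Thyroid AT 2 and AT 3 carried thymocyte markers, at sums of 3642 and 1934 against at most 384 in the others.

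Lambs of a group differed widely in their mitosis genes. In BAT, the median over the 49 members of log2(normalized count + 1) was 5.16 in Control 1, 4.65 in Control 3 and 3.54 in Control 2. It lay between 5.39 in AT 1 and 7.23 in AT 6 among AT lambs, and between 5.68 in Cold 6 and 7.74 in Cold 2 among cold lambs. Every treated lamb was above every control, while AT and cold lambs overlapped. Cold 2 was the highest of the 12 treated lambs for 40 of the 49 members, and Cold 4 was among the highest 2 for 34. Control 2 was the lowest of all 15 lambs for 35 members and had no read for 6.

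The BAT lambs with high medians also differed in markers of other cells. Markers of fibroblasts and preadipocytes summed to 187846 in AT 6, 111240 in Cold 2 and 93160 in Cold 4, against between 34705 and 75037 in the other treated lambs and between 36453 and 46953 in the 3 controls. Macrophage markers were highest in Cold 4 at 10626, with 2770 in Cold 2 and 1623 in AT 6, against between 1681 and 2602 in the controls. No gene of either list was at 0 in a whole group, and none of either list rose in BAT with 2 controls. In AT lambs the macrophage marker CD68 fell by 1.03 on the log2 scale (adjusted p = 0.031). The endothelial marker KDR fell by 1.29, the smooth muscle markers ACTA2 by 1.68 and TAGLN by 1.23, and the adipocyte marker FABP4 by 1.39. The macrophage and endothelial lists as a whole did not fall in these lambs. Of 8 macrophage markers 6 had a log2 change above 0, with a median of 0.87. Of 10 endothelial markers 6 were above 0, with a median of 0.10. Of 6 smooth muscle markers 1 was above 0, and of 9 brown adipocyte markers 3 were. CD68 and KDR were not called with all 3 controls. The part of these cells in the mitosis levels was not tested.

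In thyroid tissue, the same median was 4.97 in Control 1, 5.20 in Control 3 and 4.32 in Control 2. It lay between 5.19 in AT 1 and 7.10 in AT 3 among AT lambs, and between 5.47 in Cold 5 and 6.63 in Cold 2 among cold lambs. AT 1 was the only treated lamb not above all 3 controls. AT 3 was the highest treated lamb for 19 members, AT 2 for 12 and Cold 2 for 7. AT 2 and AT 3 were the libraries with thymocyte markers, and thymocytes are dividing cells, so values without both are given below.

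**Figure D1:**
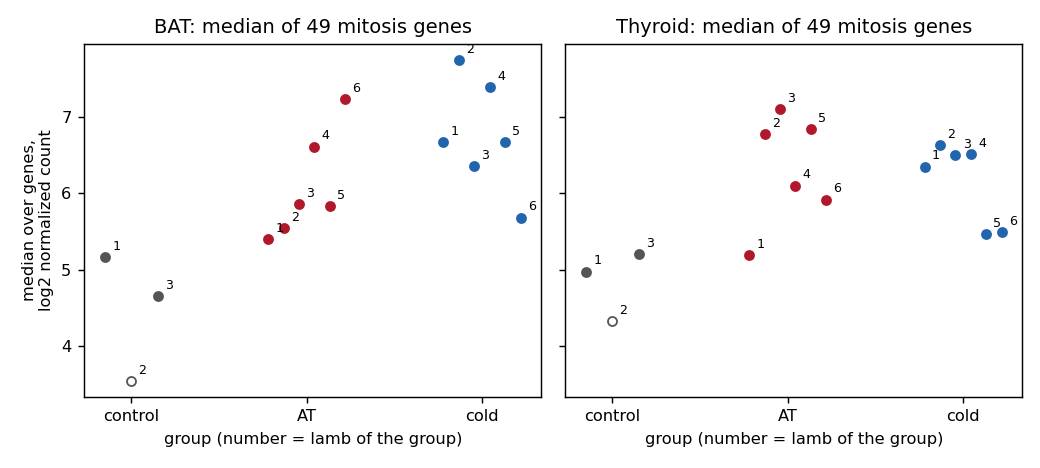
Median over the 49 mitosis genes of log2(normalized count + 1) (vertical axis) in each library by group (horizontal axis), for BAT and for thyroid tissue, where points are lambs with their number and the open point is Control 2, which the tests left out. In BAT the 12 treated lambs lie from 5.39 to 7.74, above all controls, and in thyroid tissue AT 1 at 5.19 lies beside Control 3 at 5.20.

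In BAT of cold lambs, most mitosis genes stood above the controls, in every role. The median log2 fold change (log2FC) was 2.18 over the 47 members that passed the filter on low counts, against -0.10 over all 14905 genes tested, and 45 of the 47 were above 0. A gene was called when its log2FC was at least 1 in size and its adjusted p was under 0.05 by edgeR's quasi-likelihood test with Benjamini-Hochberg adjustment. Below, rose, fell, passed and called refer to this edgeR test with 2 controls unless DESeq2 or all 3 controls are named. By this rule 7 members rose, CENPF, TTK, CENPE, TOP2A, AURKA, MAD2L1 and SMC2, and none fell, against 0.577% of all genes called higher. In 38 members all 6 cold lambs were above both controls, against 8.89% of all genes, and in 37 they were above all 3 controls, against 6.14%. No member had all cold lambs below all 3 controls, against 7.25%. At an unadjusted p under 0.05, 43 members were higher and 1 lower, against 18.1% of all genes in either direction. CDC25C and SPC25 did not pass the filter in BAT.

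The number of calls in cold BAT turned on single lambs and on the controls. With all 3 controls 33 members rose, against 2.7% of all genes, and DESeq2's Wald test with 2 controls called 34 higher, against 2.79%. The count was 2 without Cold 2 or without Cold 4, 20 without AT 6, 18 without Control 3 and 28 without Control 1, with Control 2 taking the place of a control left out. It was 4 without Cold 1, Cold 3, Cold 5 or AT 3, and 11 without Cold 6. Here and below, counts with lambs left out are given without the share of all genes called. That share itself moved with the controls, from 0.577% with 2 to 2.7% with all 3 in cold BAT. Such swings are therefore not shown to be particular to the members. AURKA and CENPF were called whichever of the 14 lambs was left out.

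In BAT of AT lambs, the median log2FC of the members was 1.503, against -0.03 over all genes, and again 45 of 47 were above 0. CENPF, CENPE, AURKA and MAD2L1, 4 members in all, rose and none fell, against 2.86% of all genes called higher. In 22 members all 6 AT lambs were above both controls, against 8.96% of all genes, and in 21 they were above all 3 controls, against 6.4%. No member had all AT lambs below all 3 controls, against 7.09%. At an unadjusted p under 0.05, 28 members were higher and 2 lower, against 26% of all genes in either direction. With all 3 controls 18 members rose, against 5.74%, and none fell, against 2.99%, and DESeq2 with 2 controls also called 18, against 5.2%. The count was 21 without Control 1, 8 without Cold 6, and 7 without Cold 2 or AT 2.

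In thyroid tissue, the log2FC of the members ranged from -0.30 to 4.47 in cold and from -0.49 to 5.01 in AT lambs. The median log2FC of the 47 members tested was 0.99 in cold and 0.93 in AT lambs, against -0.28 over all 16122 genes in each. With TMM scaling the median over all genes was 0.02 in cold and 0.05 in AT lambs, and that of the members was 1.26 and 1.25. In cold lambs 13 members rose, against 1.89% of all genes called higher, and in AT lambs 16 rose, against 1.82%. None fell in either comparison, against 6.15% and 5.98% of all genes. In 24 members all cold lambs were above both controls, against 6.18% of all genes, and in 20 members all AT lambs were, against 5.63%. Above all 3 controls, the counts were 23 in cold lambs, against 3.94%, and 19 in AT lambs, against 3.38%. In AT lambs no member was below all 3 controls in all lambs, against 9.18%. With all 3 controls 21 members rose in each comparison, against 2.38% of all genes in cold and 2.12% in AT lambs, and none fell, against 6.09% and 4.91%. DESeq2 with 2 controls called 19 higher in cold lambs, against 2.99%, and 20 in AT lambs, against 3.08%. SPC24 and SPC25 did not pass the filter in thyroid tissue.

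The thyroid counts were computed again without treated or kept control libraries that carried thymocyte or skeletal muscle markers. Thyroid Control 2, which held parathyroid markers, enters every thyroid value given with all 3 controls. Without AT 2 and AT 3, which held thymocyte markers, 16 members rose in cold and 14 in AT lambs. Without AT 3 and Control 1, which held skeletal muscle markers, 14 rose in cold and 13 in AT lambs, with Control 2 in place of Control 1. Leaving out Cold 2 brought the cold count to 6. Markers of macrophages and fibroblasts also moved in thyroid tissue. Of 8 macrophage markers, 4 rose in cold lambs, and 3 rose and 1 fell in AT lambs, with a sum between 2886 and 9210 in treated lambs and between 1721 and 2632 in the 3 controls. Of 10 fibroblast and preadipocyte markers, 4 rose in cold and 5 in AT lambs, with a sum between 36521 and 149951 in treated lambs and between 22644 and 28263 in the controls. No gene of these lists was at 0 in a whole group, and their part in the change of the mitosis genes was not tested.

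**Figure D2:**
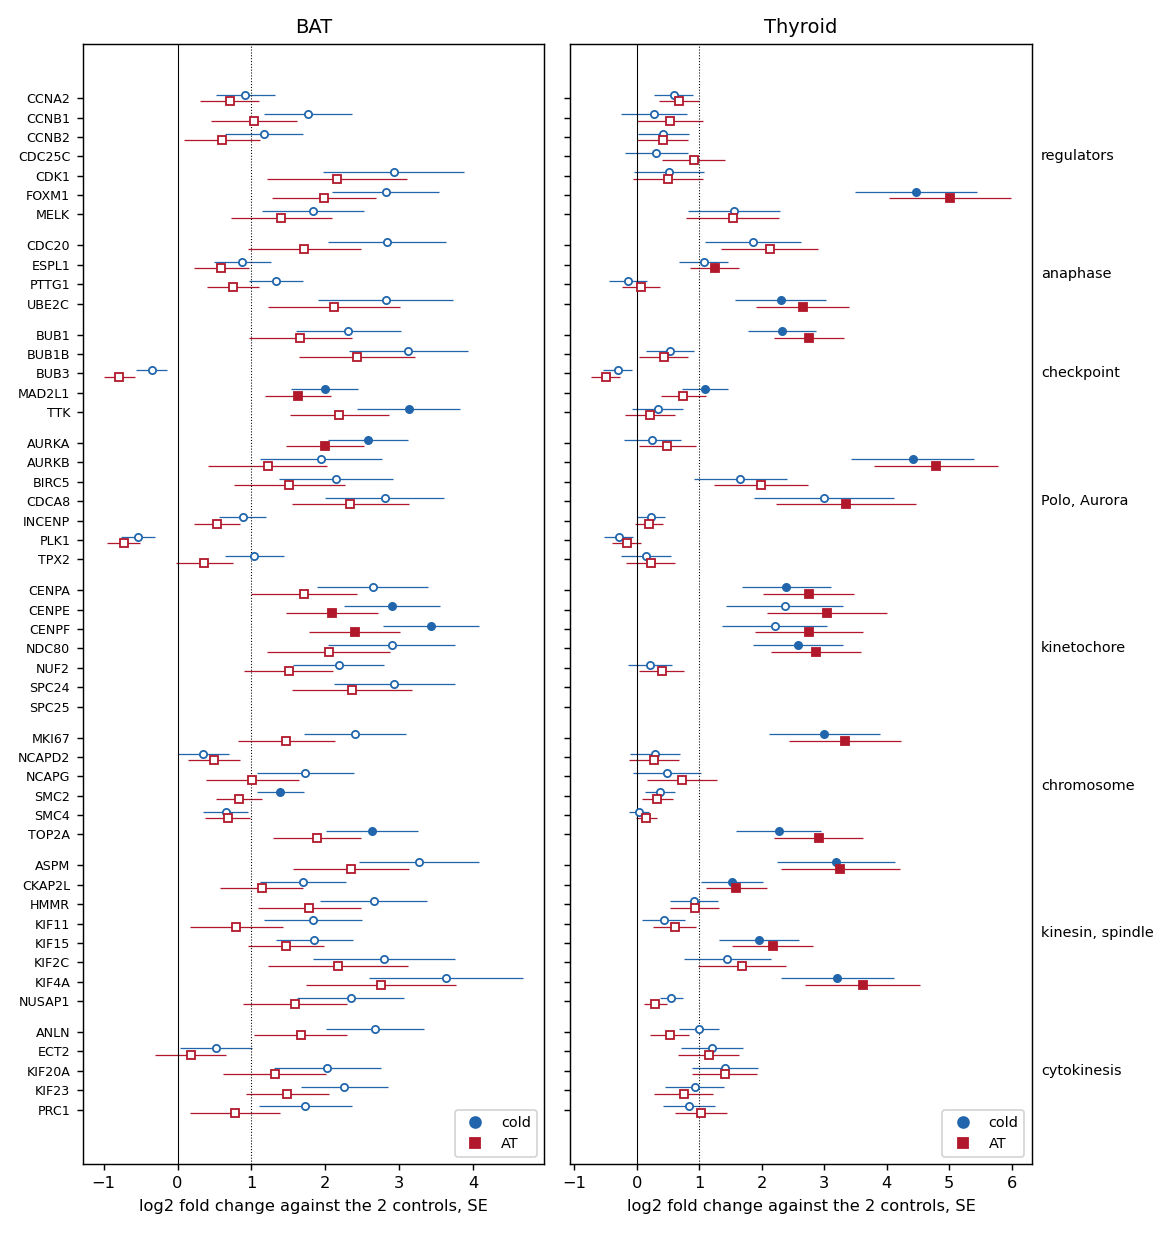
Log2 fold change against Control 1 and Control 3 with its SE (one axis) for each mitosis gene grouped by role (other axis), in BAT and in thyroid tissue, where circles are cold lambs, squares are AT lambs and filled symbols passed the test. In BAT the values spread from -0.79 for BUB3 to 3.64 for KIF4A with few filled symbols, and in thyroid tissue they spread from -0.49 for BUB3 to 5.01 for FOXM1.

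Among the regulators of entry into mitosis, FOXM1 had the largest log2FC in thyroid tissue of the members tested. FOXM1 is a transcription factor that activates genes of late interphase and mitosis, and it lies on the plus strand of NC_040254.1 between positions 227705946 and 227719016. Its thyroid level was 1.09 normalized counts in Control 1 and 1.32 in Control 3, from 1 read each, and 3.16 in Control 2. The lowest, median and highest levels were 11.9, 32.4 and 45.2 in cold lambs and 15.7, 45.9 and 63.4 in AT lambs. All 12 treated lambs were above all 3 controls. FOXM1 rose at log2FC 4.47 ± 0.97 (SE, adjusted p = 0.00833) in cold and 5.01 ± 0.97 (adjusted p = 0.00405) in AT lambs. From pooled reads, the fold was 24.2 in cold lambs with an exact 95% interval of 6.60 to 201, and 33.9 in AT lambs with an interval of 9.29 to 282, where intervals cover counting error only.

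In BAT, FOXM1 was 18.7 in Control 1, 7.02 in Control 3 and 10.7 in Control 2, between 24.7 and 78.1 in AT and between 25.5 and 169.8 in cold lambs. No treated lamb overlapped a control. Its log2FC of 2.82 ± 0.73 in cold (adjusted p = 0.0615) and 1.98 ± 0.71 in AT lambs (adjusted p = 0.0897) did not pass by edgeR with 2 controls. Both passed by edgeR with all 3, and by DESeq2 with 2 controls (adjusted p = 0.00131 and 0.0230).

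CDK1, the kinase that drives entry into mitosis, passed in no comparison by edgeR with 2 controls, and passed in cold BAT by DESeq2 (adjusted p = 0.0188, range over alternatives 0.0188 to 0.141). In BAT it was 6.69, 2.13 and 3.90 normalized counts in Control 1, 2 and 3. Its lowest, median and highest levels were 7.64, 15.3 and 44.5 in AT and 8.01, 28.7 and 81.5 in cold lambs. The lowest treated lambs were close to Control 1, which rested on 5 reads, and the log2FC was 2.93 ± 0.96 (adjusted p = 0.119) in cold and 2.16 ± 0.94 (adjusted p = 0.16) in AT lambs. In thyroid tissue CDK1 was 11.9, 9.49 and 26.5 in the controls and between 11.02 and 42.2 in treated lambs, which overlapped, at log2FC 0.52 ± 0.56 in cold and 0.50 ± 0.56 in AT lambs.

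CCNB1, the cyclin that activates CDK1, was 32.1, 25.6 and 29.6 in BAT of Control 1, 2 and 3. Its lowest, median and highest BAT levels were 22.9, 50.7 and 124 in AT and 50.3, 88.1 and 177 in cold lambs. All cold lambs and not all AT lambs were above the controls, at log2FC 1.77 ± 0.60 (adjusted p = 0.133) and 1.03 ± 0.58 (adjusted p = 0.272). The cold BAT change passed by DESeq2 with 2 controls (adjusted p = 0.0336) and by edgeR with all 3, at 1.91 (adjusted p = 0.0419). The AT BAT change of CCNB1 passed by neither. In thyroid tissue CCNB1 was 34.7, 11.1 and 66.1 in the controls and between 26.3 and 107 in treated lambs, without a separation of groups. CCNB2 and CCNA2, other mitotic cyclins, had BAT log2FC between 0.60 and 1.17 and thyroid log2FC between 0.42 and 0.68, and none passed. MELK, a kinase of dividing cells, had log2FC between 1.41 and 1.83 over the 4 comparisons with controls and passed in none. CDC25C, the phosphatase that activates CDK1, was tested in thyroid tissue, at 0.32 ± 0.50 in cold and 0.91 ± 0.51 in AT lambs. In BAT it was 10.7, 4.26 and 5.46 in the controls, between 2.15 and 30.9 in AT and between 13.1 and 38.7 in cold lambs.

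Of the 4 anaphase genes, UBE2C and ESPL1 rose by edgeR with 2 controls, both in thyroid tissue. In cold BAT, DESeq2 with the same controls called CDC20, PTTG1 and UBE2C, and 3 of the 4 rose with all 3 controls. In AT BAT each of these called 1. UBE2C had a BAT log2FC of 2.82 ± 0.92 (adjusted p = 0.12) in cold and 2.12 ± 0.89 (adjusted p = 0.148) in AT lambs. UBE2C is a ubiquitin-conjugating enzyme of the anaphase-promoting complex. It was 10.9 in thyroid Control 1, 18.5 in Control 3 and 55.4 in Control 2, with lowest, median and highest levels of 25.4, 84.3 and 108 in cold and 36.3, 101 and 146 in AT lambs. Control 2 lay inside the treated range, while the other controls lay below it. UBE2C rose at log2FC 2.31 ± 0.73 (adjusted p = 0.0398) in cold and 2.66 ± 0.74 (adjusted p = 0.022) in AT lambs, and neither call was made with all 3 controls. The cold call was also lost without Cold 1 to Cold 4, AT 4 or either kept control, with an adjusted p of at most 0.375, and the AT call without either kept control, at most at 0.2195. ESPL1, the separase that cuts cohesin, was 92.3, 58.5 and 100.5 in thyroid Control 1, 2 and 3 and between 134.5 and 282 in AT lambs. It rose there at log2FC 1.25 ± 0.39 (adjusted p = 0.0349), and without AT 4 the call was lost (adjusted p = 0.0554).

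CDC20, an activator of the same complex, was higher without passing, at log2FC 2.84 ± 0.80 in BAT (adjusted p = 0.0777) and 1.86 ± 0.77 in thyroid tissue (adjusted p = 0.101) of cold lambs. PTTG1, the securin that holds separase back, had 1.33 ± 0.37 in BAT (adjusted p = 0.0703) and -0.14 ± 0.30 in thyroid tissue (adjusted p = 0.779) of cold lambs.

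Among the checkpoint genes, TTK rose in BAT, BUB1 in thyroid tissue and MAD2L1 in both. TTK, the kinase that starts checkpoint signalling, was 8.02 in BAT Control 1, 6.24 in Control 3 and 0 in Control 2. BAT levels of its lowest, median and highest lamb were 16.7, 27.4 and 57.5 in AT and 20.4, 54.8 and 114 in cold lambs, all above the controls. TTK rose in cold BAT at log2FC 3.13 ± 0.69 (adjusted p = 0.0378) and had 2.19 ± 0.68 in AT lambs (adjusted p = 0.0518). Without Cold 2, Cold 3 or Cold 4 the cold call was lost, with an adjusted p of at most 0.0518. In thyroid tissue TTK was 186, 80.7 and 234 in Control 1, 2 and 3 and between 143 and 406 in treated lambs. These groups overlapped, at log2FC 0.34 ± 0.41 in cold and 0.21 ± 0.40 in AT lambs.

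BUB1B, a checkpoint protein that holds CDC20 back, was 30.75, 12.8 and 3.12 in BAT of Control 1, 2 and 3. Its lowest, median and highest BAT levels were 37.8, 82.3 and 146 in AT and 50.3, 117 and 274 in cold lambs. No treated lamb overlapped the controls, and the log2FC of 3.13 ± 0.80 in cold (adjusted p = 0.0615) and 2.43 ± 0.78 in AT lambs (adjusted p = 0.0628) did not pass. Both passed by DESeq2 with 2 controls (adjusted p = 0.000486 and 0.00554) and by edgeR with all 3 (adjusted p = 0.0148 and 0.023). In thyroid tissue BUB1B was 129, 30.05 and 132 in the controls and between 103 and 335 in treated lambs, at log2FC 0.54 ± 0.39 and 0.43 ± 0.39. BUB1, a kinase of the same pathway, was 9.77, 6.33 and 14.6 in thyroid Control 1, 2 and 3, between 35.6 and 79.3 in cold and between 32.2 and 116 in AT lambs. All treated lambs were above all controls, and BUB1 rose at 2.33 ± 0.55 (adjusted p = 0.0119) and 2.76 ± 0.56 (adjusted p = 0.00501), whichever lamb was left out. In BAT BUB1 had 2.31 ± 0.71 (adjusted p = 0.0996) in cold and 1.66 ± 0.69 (adjusted p = 0.143) in AT lambs. The cold BAT change passed by DESeq2 with 2 controls (adjusted p = 0.00952) and by edgeR with all 3 (adjusted p = 0.0259). The AT BAT change passed by neither.

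MAD2L1, which captures CDC20 at the checkpoint, rose in BAT of both groups and in thyroid tissue of cold lambs. In BAT it was 16.04 in Control 1, 12.5 in Control 3 and 42.6 in Control 2, between 31.1 and 56.9 in AT and between 35.7 and 85.9 in cold lambs. Only Control 2 overlapped the treated lambs. The BAT log2FC was 1.99 ± 0.45 (adjusted p = 0.0396) in cold and 1.63 ± 0.44 (adjusted p = 0.0313) in AT lambs, and neither call was made with all 3 controls. The cold BAT call was also lost without Cold 2, Cold 4, Cold 5 or either kept control, and the AT call without either kept control, with adjusted p of at most 0.199 and 0.345. The thyroid log2FC of cold lambs was 1.09 ± 0.37 (adjusted p = 0.049), and this call was lost without any of 8 lambs, Cold 1 to Cold 5 or AT 4 to AT 6, at most at 0.0707.

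BUB3, a checkpoint protein that also acts outside mitosis, lay below Control 1 and Control 3 in BAT. It lies on the plus strand of NC_040273.1 between positions 46206314 and 46218559. In BAT it was 790.2 in Control 1, 739 in Control 3 and 561 in Control 2. BAT levels of its lowest, median and highest lamb were 299.9, 436 and 588 in AT and 564, 586 and 688 in cold lambs. All treated lambs were below Control 1 and Control 3, and all cold lambs were above Control 2. The log2FC was -0.79 ± 0.21 (adjusted p = 0.0278) in AT lambs, past the p threshold and short of the fold threshold, and -0.35 ± 0.21 (adjusted p = 0.408) in cold lambs. In thyroid tissue BUB3 was 5340.2, 3116 and 4492 in Control 1, 2 and 3 and between 2674 and 4902 in treated lambs, at -0.30 ± 0.23 in cold, a value that was 0.07 without Control 1, and -0.49 ± 0.23 in AT lambs.

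PLK1, the Polo-like kinase of centrosomes and kinetochores, was the other member below both controls in all treated BAT lambs, against 15.7% of all genes that were lower without overlap in cold and 15.3% in AT lambs. It was 499 in Control 1, 620.2 in Control 3 and 55.4 in Control 2, with lowest, median and highest levels of 289, 338 and 401 in AT and 251, 407 and 480.0 in cold lambs. Control 2 was far below all other lambs. The log2FC with 2 controls was -0.54 ± 0.23 (adjusted p = 0.221) in cold and -0.73 ± 0.23 (adjusted p = 0.0521) in AT lambs, and with all 3 controls the cold value was 0.05. In thyroid tissue PLK1 was 524, 849 and 835 in Control 1, 2 and 3 and between 441 and 743 in treated lambs. Its values of -0.28 ± 0.23 in cold and -0.16 ± 0.23 in AT lambs were 0.03 and 0.20 with TMM scaling.

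**Figure D3:**
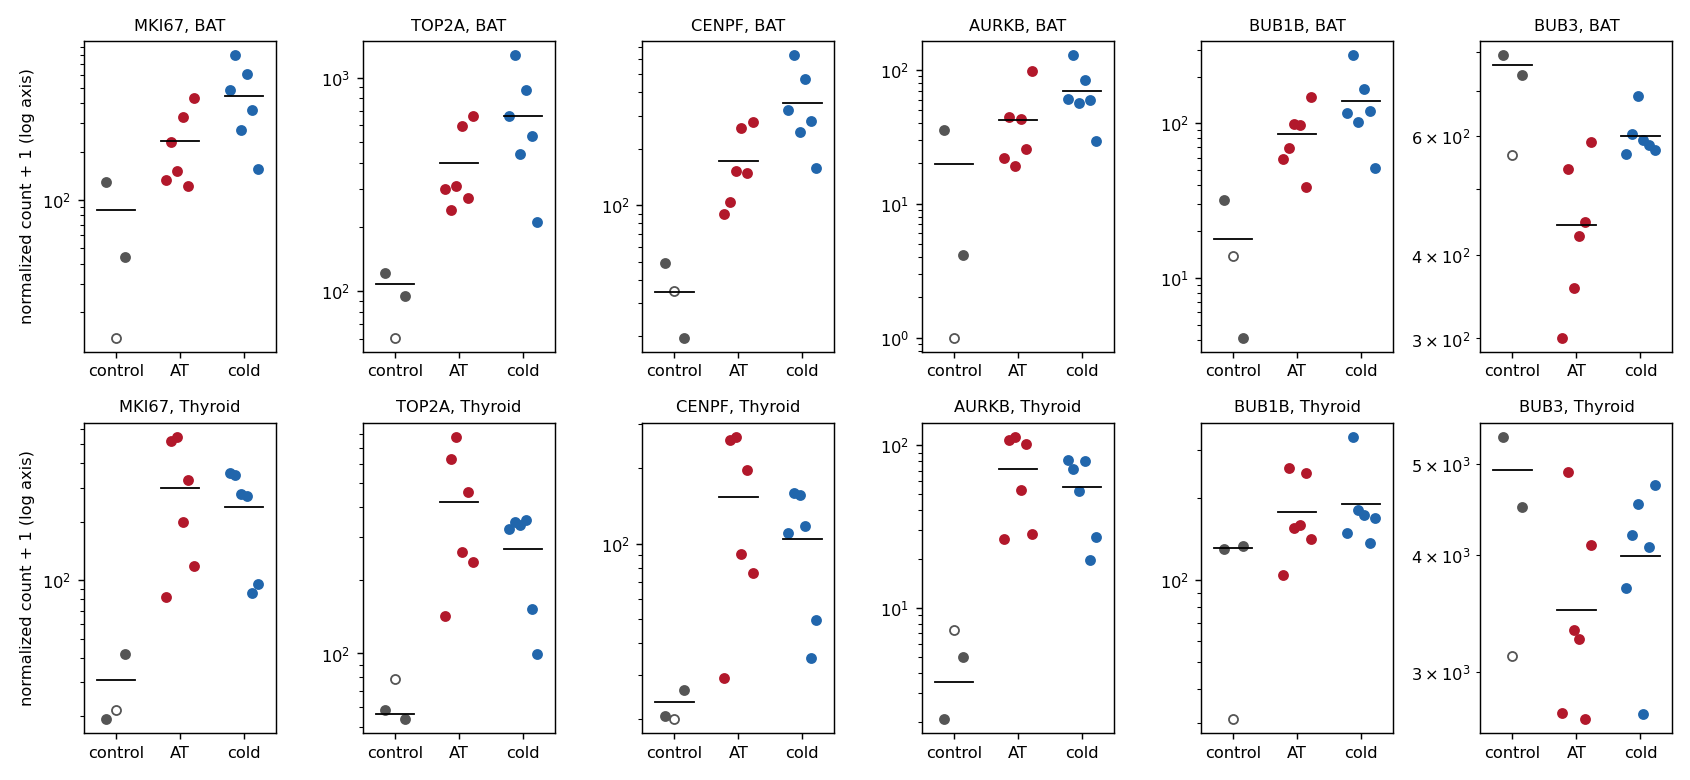
Normalized count + 1 (vertical log axis) of MKI67, TOP2A, CENPF, AURKB, BUB1B and BUB3 in each library by group (horizontal axis), in BAT and in thyroid tissue, where points are lambs, lines are group means without Control 2 and open points are Control 2. CENPF of treated BAT lambs, from 88.8 to 628, lies above all controls, whereas BUB3 of the same lambs, from 299.9 to 688, lies below Control 1 and Control 3.

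The Aurora kinases divided between the tissues in which they passed. AURKA, which matures centrosomes, was 10.7, 10.7 and 12.5 in BAT of Control 1, 2 and 3. Its lowest, median and highest BAT levels were 25.6, 39.3 and 78.1 in AT and 35.0, 64.3 and 109 in cold lambs. The 3 controls lay close together and below every treated lamb. AURKA rose in BAT at log2FC 2.58 ± 0.54 (adjusted p = 0.0325) in cold and 1.99 ± 0.53 (adjusted p = 0.0279) in AT lambs. In thyroid tissue it was 28.2, 36.4 and 35.7 in the controls and between 21.2 and 69.9 in treated lambs, at 0.25 ± 0.46 and 0.49 ± 0.46.

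AURKB, the kinase of the chromosomal passenger complex, was 1.09 in thyroid Control 1, 3.97 in Control 3 and 6.33 in Control 2. Among treated lambs, its lowest, median and highest thyroid levels were 18.7, 60.9 and 80.4 in cold and 25.6, 76.6 and 112 in AT lambs, all above the controls. It rose at log2FC 4.42 ± 0.98 (adjusted p = 0.00921) in cold and 4.79 ± 0.99 (adjusted p = 0.00546) in AT lambs. The fold of pooled reads, against 4 reads in the 2 controls, was 22.6 in cold lambs with an exact 95% interval of 8.74 to 83.3, and 28.1 in AT lambs with an interval of 10.9 to 103. In BAT AURKB was 34.8, 0 and 3.12 in Control 1, 2 and 3 and between 18.2 and 127 in treated lambs. Control 1 lay inside that range, at log2FC 1.94 ± 0.83 (adjusted p = 0.223) in cold and 1.22 ± 0.80 (adjusted p = 0.354) in AT lambs.

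CDCA8, another subunit of the complex, rose in thyroid tissue of AT lambs at log2FC 3.35 ± 1.12 (adjusted p = 0.0467). It was 0, 1.58 and 6.61 in thyroid Control 1, 2 and 3 and between 10.6 and 59.7 in AT lambs, and the call was lost without any of 8 lambs, Cold 2, Cold 3, Cold 4, Cold 6, AT 2, AT 4, AT 5 or Control 1, with an adjusted p of at most 0.0681. In BAT CDCA8 had 2.80 ± 0.80 (adjusted p = 0.0785) in cold and 2.34 ± 0.79 (adjusted p = 0.0741) in AT lambs. Both passed by DESeq2 with 2 controls and by edgeR with all 3. BIRC5, the survivin subunit, had log2FC between 1.52 and 2.14 over the 4 comparisons with controls. It passed in none by edgeR with 2 controls, and by DESeq2 it passed in cold BAT and in thyroid tissue of AT lambs. INCENP, the scaffold of the complex, had 0.88 and 0.53 in BAT and 0.23 and 0.20 in thyroid tissue of cold and AT lambs. TPX2, which activates AURKA on the spindle, had 1.04 and 0.36 in BAT and 0.15 and 0.22 in thyroid tissue, and neither gene passed.

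CENPF, a large protein of the outer kinetochore, had the smallest adjusted p of all members in both BAT comparisons with controls. It lies on the minus strand of NC_040263.1 between positions 74119867 and 74183211. In BAT it was 48.1 in Control 1, 18.7 in Control 3 and 34.1 in Control 2. At their lowest, median and highest, levels were 88.8, 150 and 276 in AT and 157, 300.4 and 628 in cold lambs. All treated lambs were above all controls, and CENPF rose at log2FC 3.44 ± 0.65 (adjusted p = 0.0229) in cold and 2.40 ± 0.62 (adjusted p = 0.025) in AT lambs. In thyroid tissue it was 19.5, 18.98 and 25.1 in Control 1, 2 and 3, between 33.9 and 158 in cold and between 28.1 and 266 in AT lambs. It rose in AT lambs at 2.76 ± 0.87 (adjusted p = 0.0374) and had 2.21 ± 0.84 (adjusted p = 0.0789) in cold lambs. The AT call was lost without AT 2 or AT 5, at most at 0.055.

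CENPE, a kinesin that carries chromosomes to the middle of the spindle, was 37.4, 19.2 and 24.2 in BAT of Control 1, 2 and 3. It lay between 64.6 and 262 in AT and between 89.6 and 420.5 in cold lambs, without overlap with the controls. CENPE rose in BAT at 2.91 ± 0.65 (adjusted p = 0.0396) in cold and 2.10 ± 0.62 (adjusted p = 0.0467) in AT lambs, and in thyroid tissue of AT lambs at 3.05 ± 0.96 (adjusted p = 0.0374). The cold BAT call was lost without Cold 1, Cold 2, Cold 4, Cold 5 or AT 3, at most at 0.0532. The AT BAT call was lost without any of 8 lambs, Cold 1, Cold 3, Cold 4, Cold 5 or AT 3 to AT 6, at most at 0.0671, and the thyroid call without AT 2 or Control 1, at most at 0.0583.

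CENPA, the histone of the centromere, rose in thyroid tissue at 2.40 ± 0.72 (adjusted p = 0.0315) in cold, a call lost without Cold 2 at 0.0518, and 2.75 ± 0.73 (adjusted p = 0.0168) in AT lambs. NDC80, which binds microtubules, rose there at 2.58 ± 0.71 (adjusted p = 0.0235) and 2.87 ± 0.72 (adjusted p = 0.0138), from 6.52, 4.74 and 3.97 in Control 1, 2 and 3 to between 11.6 and 56.7 in treated lambs. In cold BAT, CENPA had 2.64 ± 0.75 (adjusted p = 0.0785) and NDC80 2.90 ± 0.86 (adjusted p = 0.0892). In AT BAT they had 1.71 ± 0.72 and 2.05 ± 0.83, and neither passed in BAT. Of the 6 kinetochore genes tested in BAT, DESeq2 with 2 controls called 6 in cold and 4 in AT lambs. With all 3 controls edgeR also called 6 and 4. NUF2, the partner of NDC80, had 0.22 ± 0.35 and 0.40 ± 0.36 in thyroid tissue and 2.18 ± 0.62 and 1.503 ± 0.60 in BAT, and passed in cold BAT by DESeq2 but nowhere by edgeR with 2 controls. SPC24, of the same complex, was tested in BAT, at 2.93 ± 0.82 (adjusted p = 0.0724) in cold and 2.36 ± 0.81 (adjusted p = 0.0768) in AT lambs. SPC25, its partner, had 1 read in each of the 3 BAT controls and between 8 and 40 in cold lambs. The fold of its pooled reads against 2 controls was 18.5 in cold lambs with an exact 95% interval of 5.02 to 155, and 11.4 in AT lambs with an interval of 3.05 to 96.2. In thyroid tissue SPC25 was 4.34, 0 and 6.61 in the controls and between 2.74 and 13.2 in treated lambs, and SPC24 was 1.09, 4.74 and 6.61 and between 4.24 and 41.8.

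Of the chromosome genes, MKI67 was 128 in BAT Control 1, 42.9 in Control 3 and 12.8 in Control 2. BAT levels of its lowest, median and highest lamb were 120.1, 189 and 431 in AT and 154, 421 and 795 in cold lambs. All cold lambs were above the controls, and the lowest AT lamb was below Control 1. The log2FC was 2.41 ± 0.69 (adjusted p = 0.0825) in cold and 1.47 ± 0.66 (adjusted p = 0.171) in AT lambs. MKI67 passed in cold BAT by DESeq2 with 2 controls (adjusted p = 0.00249) and by edgeR with all 3, at 2.92 (adjusted p = 0.0198). The study reported MKI67 as upregulated in cold BAT, and its quantitative PCR pointed the same way. The adjusted p of MKI67 ranged from 0.00249 to 0.142 over the alternatives. As single lambs were left out, its log2FC lay between 2.12 without Cold 2 and 3.95 without Control 1 in cold lambs, and between 1.18 without AT 6 and 3.04 without Control 1 in AT lambs.

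In thyroid tissue MKI67 was 18.5, 20.6 and 41.0 in Control 1, 2 and 3. Its lowest, median and highest levels were 84.8, 273 and 353 in cold and 80.9, 262 and 546 in AT lambs, all above the controls. It rose at log2FC 3.00 ± 0.88 (adjusted p = 0.031) in cold and 3.33 ± 0.90 (adjusted p = 0.0196) in AT lambs. The cold call was lost without Cold 2 (adjusted p = 0.0503).

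TOP2A, the topoisomerase that untangles sister chromatids, was 120.3, 59.7 and 94.4 in BAT of Control 1, 2 and 3. Its lowest, median and highest BAT levels were 239.5, 306 and 662 in AT and 209, 593 and 1268 in cold lambs. All treated lambs were above the controls. TOP2A rose in cold BAT at log2FC 2.63 ± 0.62 (adjusted p = 0.0495), and had 1.89 ± 0.60 in AT lambs (adjusted p = 0.0579). In thyroid tissue it was 57.5, 77.5 and 52.9 in the controls, between 98.5 and 352 in cold and between 141 and 776 in AT lambs. It rose there at 2.27 ± 0.68 (adjusted p = 0.0327) and 2.91 ± 0.71 (adjusted p = 0.0124). The BAT call was lost without any of 9 lambs, Cold 1 to Cold 5, AT 1 to AT 3 or AT 5, with an adjusted p of at most 0.0634. The thyroid call of cold lambs was lost without Cold 2, Control 1 or Control 3, at most at 0.0599.

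Of the condensin subunits, SMC2 was the one called. SMC2, an ATPase of condensin, rose in cold BAT at log2FC 1.39 ± 0.32 (adjusted p = 0.0416), from 123, 59.7 and 91.3 in Control 1, 2 and 3 to between 168 and 376 in cold lambs. In AT lambs, between 149.9 and 258, it had 0.84 ± 0.31 (adjusted p = 0.102). The cold call was lost without any of 6 lambs, Cold 1 to Cold 4, AT 3 or AT 5, at most at 0.0703. SMC4, its partner, had 0.65 ± 0.30 in BAT and 0.04 ± 0.16 in thyroid tissue of cold lambs. NCAPG had 1.73 ± 0.66 and 0.49 ± 0.55, and NCAPD2 had 0.35 ± 0.35 and 0.29 ± 0.40 in the same comparisons, and none of these passed.

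Levels of different genes were compared per kilobase of exon. In BAT of cold lambs the highest members were SMC4 at 234 ± 63.2, BUB3 at 212 ± 16.05 and NCAPD2 at 208 ± 46.4 normalized counts per kilobase (SD, n = 6), which did not differ beyond their spread, and CDC25C was lowest at 5.64 ± 2.42. In thyroid tissue of cold lambs BUB3 was highest at 1412 ± 258, followed by NCAPD2 at 769.5 ± 244 and SMC4 at 305 ± 20.0, and ASPM was lowest at 2.98 ± 1.80.

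Of the 8 kinesins and spindle proteins, edgeR with 2 controls called none in BAT and 4 in thyroid tissue of both groups. DESeq2 with the same controls called all 8 higher in cold BAT and 4 in AT BAT. KIF4A, a motor on chromosome arms, had the largest log2FC in BAT of the 47 members that passed the filter, at 3.64 ± 1.04 in cold (adjusted p = 0.0798) and 2.75 ± 1.01 in AT lambs (adjusted p = 0.102). It was 16.04 in BAT Control 1, 2.13 in Control 2 and 0 in Control 3, with lowest, median and highest levels of 20.1, 38.6 and 79.1 in AT and 26.2, 78.3 and 173 in cold lambs. All treated lambs were above the controls, and the fitted fold in cold lambs was 6.98 on the log2 scale without Control 1 and 3.24 without Control 3, with Control 2 in their place, and passed in both. In thyroid tissue KIF4A had 3 reads in each control, or 3.26, 4.74 and 3.97 normalized counts. Among treated lambs, its lowest, median and highest thyroid levels were 12.7, 33.6 and 58.4 in cold and 14.9, 40.4 and 99.8 in AT lambs. It rose at 3.21 ± 0.91 (adjusted p = 0.0254) and 3.61 ± 0.92 (adjusted p = 0.0144), with a fold of pooled reads of 9.44 in cold and 11.8 in AT lambs and exact 95% intervals of 4.27 to 26.01 and 5.33 to 32.3.

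ASPM, a protein of the spindle poles, rose in thyroid tissue at 3.19 ± 0.95 (adjusted p = 0.0309) in cold and 3.26 ± 0.95 (adjusted p = 0.0261) in AT lambs. It had only 2, 0 and 4 reads in thyroid Control 1, 2 and 3, and between 10 and 66 in treated lambs. KIF15, a spindle motor, rose in thyroid tissue at 1.96 ± 0.64 (adjusted p = 0.0442) and 2.18 ± 0.64 (adjusted p = 0.0282). CKAP2L, a spindle protein, rose at 1.53 ± 0.49 (adjusted p = 0.0421) and 1.60 ± 0.49 (adjusted p = 0.034). In cold lambs the KIF15 call was lost without any of 7 lambs, Cold 1 to Cold 4, AT 4 or either kept control, at most at 0.115, and the CKAP2L call without any of 6, Cold 1 to Cold 4, AT 6 or Control 1, at most at 0.0724. In AT lambs KIF15 was lost without Control 3, at 0.0828, and CKAP2L without Control 1, at 0.0622. In cold BAT, ASPM had 3.27 ± 0.81 (adjusted p = 0.0564), KIF15 1.85 ± 0.52 (adjusted p = 0.0761) and CKAP2L 1.70 ± 0.58 (adjusted p = 0.133). In AT BAT they had 2.35 ± 0.78, 1.46 ± 0.52 and 1.14 ± 0.56. None of these BAT values passed by edgeR with 2 controls. KIF11, HMMR, KIF2C and NUSAP1 passed in no comparison by edgeR with 2 controls. NUSAP1, which bundles spindle microtubules, had a thyroid log2FC of 0.56 ± 0.19 in cold lambs (adjusted p = 0.049), under the fold threshold. With all 3 controls, edgeR called 7 of the 8 in cold BAT, with KIF2C as the exception.

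None of the 5 cytokinesis genes was called by edgeR with 2 controls, and DESeq2 with the same controls called 4 in cold BAT, all but ECT2, 2 in AT BAT, 1 in thyroid tissue of cold and 2 in that of AT lambs. ANLN, a scaffold of the contractile ring, was 34.8, 10.7 and 35.1 in BAT of Control 1, 2 and 3 and between 88.2 and 435 in cold lambs, without overlap, at log2FC 2.67 ± 0.66 (adjusted p = 0.0567). In thyroid tissue of cold lambs it had 0.99 ± 0.32 (adjusted p = 0.043), just under the fold threshold. ECT2, also needed for cytokinesis, had 0.52 ± 0.48 in BAT and 1.21 ± 0.50 in thyroid tissue of cold lambs. KIF20A, KIF23 and PRC1, which build the central spindle, had log2FC from 1.73 to 2.26 in BAT of cold lambs and from 0.84 to 1.41 in their thyroid tissue. With all 3 controls, 3 of the 5 rose in cold BAT, 2 in AT BAT and 3 in each thyroid comparison.

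Over the 4 comparisons with controls, which share their control lambs within a tissue, 20 members rose in at least 1, against 4.46% of all genes tested in either tissue. These were 7 in BAT, against 2.61%, and 17 in thyroid tissue, against 2.36%, with CENPE, CENPF, MAD2L1 and TOP2A in both. With all 3 controls 38 members rose in at least 1 comparison, against 7.58% of all genes, and ASPM, CDCA8, CENPE, CENPF, FOXM1, HMMR, KIF15, KIF4A and TOP2A, 9 in all, rose in each, against 0.377%. The 11 members that edgeR called in none with either set of controls were BUB3, CCNA2, CCNB2, CDC25C, KIF2C, MELK, NCAPD2, NCAPG, PLK1, SMC4 and SPC25, of which SPC25 was not tested and KIF2C was called in cold BAT by DESeq2.

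Cold and AT lambs of one age were then compared. In BAT 0 of the 47 members were called by edgeR, against 0.188% of all genes called higher and 0.0872% lower, and 0 by DESeq2. At an unadjusted p under 0.05, 14 members were higher in cold lambs and 0 lower, against 12.3% of all genes in either direction. The log2FC was above 0 for 45 of 47, with a median of 0.70 against -0.05 over all genes. All 47 overlapped between the groups, and of all genes 0.537% were higher and 0.154% lower without overlap. CDC20 was highest at 1.12 ± 0.46 (adjusted p = 0.352) and NCAPD2 lowest at -0.15 ± 0.24 (adjusted p = 0.817). CENPF had the smallest adjusted p, at 1.03 ± 0.36 (adjusted p = 0.285), MKI67 had 0.93 ± 0.41 (adjusted p = 0.382) and BUB3, which lay below the controls in both groups, had 0.44 ± 0.15 (adjusted p = 0.29). As single lambs were left out, the median lay between 0.43 and 0.94.

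In thyroid tissue 0 of the 47 members were called between cold and AT lambs by edgeR, against 0.0% of all genes, and 0 by DESeq2. At an unadjusted p under 0.05, 1 member was higher, against 5.4% of all genes in either direction. The median was -0.18 against 0.00 over all genes, with 15 members above 0 and 32 below, and all 47 overlapped, while of all genes 0.118% were higher and 0.0744% lower without overlap. ANLN was highest at 0.47 ± 0.21 (adjusted p = 0.911) and CENPE lowest at -0.68 ± 0.54 (adjusted p = 0.928). Without AT 2 and AT 3, which held thymocyte markers, the median was 0.07, CENPE had 0.25 and MKI67, at -0.33 ± 0.50 with all lambs, had 0.37.

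The 2 tissues were compared in the 12 treated lambs, in 1 fit with size factors set over both tissues. Most members were higher in BAT. Of 48 members tested, 37 were called higher in BAT, against 27.2% of all 17021 genes, and 3 in thyroid tissue, against 13.3%. The median log2 difference of BAT over thyroid tissue was 1.61 for the members and 0.34 for all genes, and with TMM scaling 1.39 and 0.10, with 29 members higher in BAT and 3 in thyroid tissue. CENPE had a mean of 291 normalized counts in BAT and 41.7 in thyroid tissue, at a log2 difference of 2.80 ± 0.36 (adjusted p = 1.35e-07). TOP2A had 862 and 214, at 2.005 ± 0.31 (adjusted p = 2.14e-06), and MKI67 had 550.3 and 168, at 1.66 ± 0.36 (adjusted p = 0.000178).

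The members higher in thyroid tissue were BUB3, INCENP and TTK. BUB3 had a mean of 842 in BAT and 2325 in thyroid tissue, at -1.48 ± 0.11 (adjusted p = 5.8e-12). INCENP had 244 and 524, at -1.11 ± 0.13 (adjusted p = 3.27e-08), and TTK had 76.8 and 158, at -1.10 ± 0.25 (adjusted p = 0.000275).

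**Figure D4:**
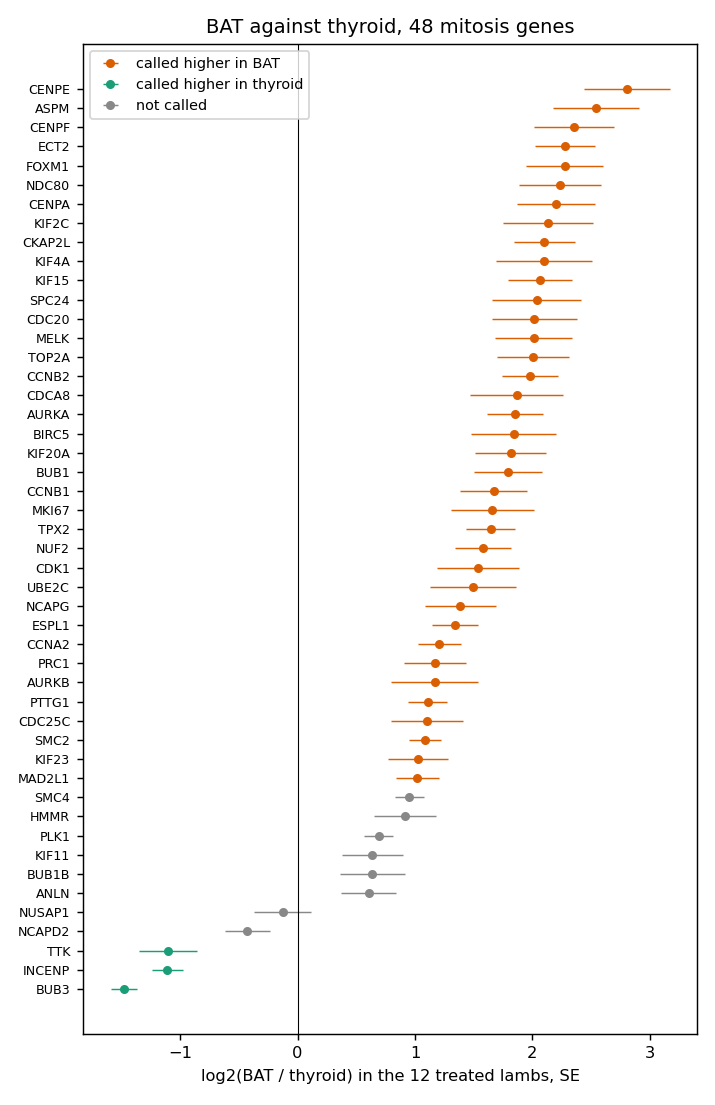
Log2 difference of BAT over thyroid tissue with its SE for each of the 48 mitosis genes tested, in the 12 treated lambs, where values above 0 are higher in BAT. CENPE is at the upper end at 2.80 and BUB3 at the lower end at -1.48.

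Whether the change against controls differed between the tissues was tested as an interaction in the same fit. For cold lambs 0 members were called by edgeR, against 0.165% of all genes with the higher log2FC in BAT, and for AT lambs 0, against 1.46%. The difference was signed, so a gene that fell only in thyroid tissue also counted as higher in BAT. No other tool was run on this difference. At an unadjusted p under 0.05, 10 of 48 members had a higher log2FC in BAT of cold lambs and 0 in thyroid tissue, against 10% and 1.74% of all genes. In AT lambs 3 had a higher log2FC in BAT and 2 in thyroid tissue, against 15% and 2.78%. The median interaction was 0.67 over the members and 0.27 over all genes in cold lambs, and -0.06 and 0.31 in AT lambs. TTK differed most in cold lambs, at 2.85 ± 0.77 (adjusted p = 0.118), and AURKB most in AT lambs, at -3.53 ± 1.28 (adjusted p = 0.143). The negative sign marks a higher log2FC in thyroid tissue. The members that passed in one tissue and not in the other were thus not shown to differ between them.

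Other genes of division were read from lists chosen beside the members. Of 74 further genes of mitosis tested in BAT, 4 rose in cold and 6 in AT lambs, against 0.577% and 2.86% of all genes. None fell, against 0.637% and 3.21%. Their median log2FC was 0.97 and 0.71, against -0.10 and -0.03 over all genes. CENPW, of the inner kinetochore, was highest at 3.57 ± 0.81 (adjusted p = 0.0396) in cold and 3.11 ± 0.80 (adjusted p = 0.0244) in AT lambs. Of 74 tested in thyroid tissue, 7 rose in each group, against 1.89% of all genes in cold and 1.82% in AT lambs. The median was 0.44 and 0.51, against -0.28 over all genes in each. OIP5, a centromere gene, fell by 1.23 on the log2 scale in AT lambs (adjusted p = 0.0375). CEP55, which acts in the last step of cytokinesis, was highest at 3.61 ± 0.84 (adjusted p = 0.0109) and 3.74 ± 0.84 (adjusted p = 0.0081).

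Genes of DNA replication had smaller medians. Of 37 tested in BAT, 0 were called in cold or AT lambs by edgeR with 2 controls, against 0.577% and 2.86% of all genes called higher. With all 3 controls 2 and 5 rose, against 2.7% and 5.74%. The median log2FC was 0.25 and 0.23, against -0.10 and -0.03 over all genes. In thyroid tissue the median was 0.08 in both groups, against -0.28 over all genes in each. PCLAF, a partner of the replication clamp, rose there at 4.49 ± 1.08 (adjusted p = 0.0127) in cold and 5.20 ± 1.08 (adjusted p = 0.00561) in AT lambs. CDC6, which loads the replicative helicase, rose in AT lambs at 1.92 ± 0.60 (adjusted p = 0.0346). Of 13 cyclins of early interphase and inhibitors, CCND1, a D-type cyclin, fell by 1.23 in cold (adjusted p = 0.0153) and by 1.42 in AT lambs (adjusted p = 0.00212) in BAT on the log2 scale. CDKN1A, an inhibitor of cyclin-dependent kinases, fell by 3.75 in thyroid tissue of cold lambs (adjusted p = 0.0477), and CDKN1C, another, rose at 1.12 ± 0.35 in AT lambs (adjusted p = 0.0373). Of the transcription factors of the cycle, 18 were tested in BAT and 17 in thyroid tissue, and edgeR called 0 with 2 controls. Of all genes, 0.577% and 2.86% were called higher in BAT and 1.89% and 1.82% in thyroid tissue of cold and AT lambs. Of the genes named here, OIP5, CDC6, CDKN1C and CCND1 in cold lambs were not called with all 3 controls, the last at a log2FC of -0.99.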

How the data were processed

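RNA of 30 libraries, BAT and thyroid tissue of 15 lambs, was analysed. The authors extracted RNA with TRIzol, captured it with oligo(dT) beads, sequenced paired reads of 150 bases on a BGISEQ-500, and used FastQC 0.11.9, Trimmomatic 0.39, STAR 2.7.7a with Oar_rambouillet_v1.0 and featureCounts (Subread 2.0.0). They deposited raw counts per gene, in which reads that map to several places were counted, so copies of a gene can add to its count. Strand use in counting is not given in the sources used here, so overlapping and antisense genes are uncertain.

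Groups came from the labels, and lambs are the replicates. A gene entered the tests when 10 or more libraries held 10 or more reads of it, and edgeR 4.0.16 (R 4.3.3, limma 3.58.1) was run with its quasi-likelihood test in robust mode, with size factors from 3 reference genes (DESeq2 1.42.0), all 3 groups in one fit per tissue and Benjamini-Hochberg adjustment over all genes. SE is the log2FC divided by the root of F. Calls needed a log2FC of at least 1 in size and an adjusted p under 0.05. The kept controls were identified because the study's normalized values per lamb were proportional to their counts. Both tissues entered 1 fit for differences between them. The script was tested on simulated counts. Alternatives were other scalings, filters, control sets and tests, DESeq2, RNA integrity as covariate, lambs left out, and lamb as a block, which pairs the tissues of the same animal.

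Values in every group are given for MKI67, TOP2A, CDK1, CCNB1, PLK1, CENPF, KIF4A, BUB1B and BUB3, for the extreme members of a comparison and for called members, and others were added after their values were seen. The members, the lists and this rule were chosen with earlier results of these data known.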

Additional observations from a re-analysis of the deposited data

Results flagged for a closer look

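Of 116 groups of 6 lambs, 4 held a member whose highest lamb stood apart by Dixon's test, which chance alone gives in about 1 in 20 groups. BUB3 in cold BAT was 687.7 normalized counts in Cold 3 against 603.9 in the next lamb. AURKB in AT BAT was 96.54 in AT 6 against 43.45 in the next lamb. BUB1B in thyroid tissue of cold lambs was 335.3 in Cold 2 against 180.8 in the next lamb. NCAPD2 in thyroid tissue of AT lambs was 7518 in AT 5 against 3932 in the next lamb. No explanation was tested.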

How the results depend on the processing

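Under the alternatives, 31 counts of calls moved by over 1.5 times and 383 did not. In BAT of cold lambs, against 7 members called higher, the count was 33 with all 3 controls, 36 with these and TMM scaling, 34 with DESeq2, 4 without a filter, 11 with only the 2 groups compared, and between 2 and 28 as lambs were left out. In BAT of AT lambs, against 4, it was 18, 21, 18 by DESeq2, 2 with only the 2 groups compared, and between 3 and 21 as lambs were left out, and 1 member was lower by adjusted p alone. In thyroid tissue, against 13 in cold lambs, it was 21 with all 3 controls, 25 with these and TMM scaling, and between 6 and 18 as lambs were left out. Against 16 in AT lambs it was 6 with only the 2 groups compared and between 13 and 21 as lambs were left out. As an interaction between tissues, 1 member passed in cold lambs with all 3 controls, and between 0 and 1 passed in cold and in AT lambs as lambs were left out. Between 32 and 39 members were higher in BAT than in thyroid tissue, and 2 to 3 in thyroid tissue, as lambs were left out. With lamb as a replicate block, 35 were higher in BAT and 3 in thyroid tissue and 0 passed as an interaction. The cause of these shifts was not tested.

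Of the log2FC of named members, 29 values turned sign, none of them of a member that was called. PLK1 in cold BAT was 0.053 with all 3 controls, 0.021 with these and TMM scaling, and between -0.64 and 0.55 as lambs were left out, and in AT BAT between -0.77 and 0.37. PLK1 in thyroid tissue was 0.031 with TMM and 0.033 with median-of-ratios scaling in cold and 0.20 and 0.19 in AT lambs. BUB3 in thyroid tissue of cold lambs was 0.064 with all 3 controls and TMM, 0.073 without AT 3 and Control 1, and between -0.36 and 0.072 as lambs were left out. Between cold and AT lambs, NCAPD2 in BAT lay between -0.29 and 0.015 and BUB1B in thyroid tissue between -0.13 and 0.23 as lambs were left out. The value of CDK1, TH cold vs AT (TH, thyroid tissue), was -0.013 with TMM, -0.0075 with median-of-ratios scaling, -0.0065 with all 3 controls and TMM, and between -0.15 and 0.19 as lambs were left out. Without AT 2 and AT 3, CENPE was 0.25, CENPF 0.068, KIF4A 0.069 and MKI67 0.37. The exclusions of AT 2 with AT 3, and of AT 3 with Control 1, were chosen after seeing the data. Few reads in controls limited FOXM1, AURKB, KIF4A and SPC25, and ASPM and CDCA8 in thyroid tissue, among others.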
